A study of Homo sapiens with 6 samples.

Results

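The members of the NF-kappaB system examined here were 10 human genes: the subunits NFKB1, NFKB2, REL, RELA and RELB, the inhibitors NFKBIA and NFKBIE, the feedback and survival genes TNFAIP3 and BIRC3, and the ligand TNF. They were taken by symbol, as the non-control probes whose gene name on the array equalled one of these symbols. This gave 11 of the 50599 probes, RELA having a pair of them, and all 11 were among the 31807 probes that passed the detection filter. In all, 22718 named genes had a tested probe. The RNA came from tumors of the human pancreatic adenocarcinoma line BxPC-3, grown as xenografts under the skin of female BALB/c nu/nu mice aged 8 to 10 weeks. Mice of the Control group (3 tumors) had the vehicle only, and mice of the DFX group (3 tumors) had the iron chelator deferasirox (DFX) by oral gavage at 200 mg/kg, with 21 days of treatment. All 6 tumors derive from this single cell line, nude mice lack mature T cells but keep other host leukocytes, and host cells can add mouse RNA to the extract. Each tumor was hybridized to 1 one-color human array of 60-mer probes.

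NF-kappaB is a family of dimeric transcription factors. Its subunits are held in the cytoplasm by inhibitor proteins until signals such as TNF, acting through its receptor and the I-kappa-B kinases, lead to the breakdown of the inhibitor and the entry of the dimer into the nucleus, where it binds kappaB sites. Several inhibitors of the pathway are themselves NF-kappaB target genes and so close a feedback loop, and pancreatic carcinoma cells are known for constant NF-kappaB activity. Pathway activity is set largely by protein breakdown and location, which transcript levels do not measure.

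The kappaB sites in front of the members are shown because they are the DNA element through which NF-kappaB is known to act on target genes such as NFKBIA, TNFAIP3 and BIRC3. Sequences are those of RefSeq on GRCh38.p14, the 250 bases before the start of transcription (a stretch of 30 bases for TNFAIP3), and capitals mark matches to the kappaB decamer consensus on either strand. The TNF window is shown as the one of the gene whose values differed most, and it holds no match.
BIRC3: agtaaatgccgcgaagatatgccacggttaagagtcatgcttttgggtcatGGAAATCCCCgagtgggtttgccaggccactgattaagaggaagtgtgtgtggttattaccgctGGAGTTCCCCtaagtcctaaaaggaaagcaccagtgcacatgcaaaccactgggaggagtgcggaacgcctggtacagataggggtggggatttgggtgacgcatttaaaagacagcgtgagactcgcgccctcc
NFKBIA: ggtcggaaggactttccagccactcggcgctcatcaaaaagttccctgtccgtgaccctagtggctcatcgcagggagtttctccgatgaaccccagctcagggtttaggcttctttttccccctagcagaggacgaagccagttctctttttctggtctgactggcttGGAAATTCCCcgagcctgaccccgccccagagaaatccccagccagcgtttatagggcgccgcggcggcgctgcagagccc
TNFAIP3: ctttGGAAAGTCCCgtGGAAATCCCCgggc
TNF: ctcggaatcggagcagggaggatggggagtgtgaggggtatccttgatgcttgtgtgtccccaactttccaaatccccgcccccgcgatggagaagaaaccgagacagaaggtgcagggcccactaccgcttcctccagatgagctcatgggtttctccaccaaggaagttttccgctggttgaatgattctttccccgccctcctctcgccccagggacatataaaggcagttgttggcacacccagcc

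These stretches lie at chr11:102317234-102317483 (plus strand) for BIRC3, chr14:35404750-35404999 (minus strand) for NFKBIA, chr6:137867188-137867217 (plus strand) for TNFAIP3 and chr6:31575315-31575564 (plus strand) for TNF. The matches begin 199 and 135 bases before the start in BIRC3, 81 bases before it in NFKBIA, and 67 and 55 bases before it in TNFAIP3, all of them read on the strand opposite to the gene. The search covered windows of 300 bases, 250 before and 50 after the start. Of the 10 members 8 were listed, with 12 windows, and 6 of them (BIRC3, NFKB1, NFKB2, NFKBIA, REL and TNFAIP3) held a match. In NFKB2 and REL some matches overlap, since a palindromic site matches on both strands or with a shift of a base. Counted by window, 7 of the 12 member windows held a match, where 11.3% of all 35116 windows did. Counted by gene, with any window sufficient, 13.3% of the 27305 listed genes held one. A match describes letters only, and its absence in the TNF and RELA windows says only that these letters do not occur there.

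All arrays lay on 1 slide and were scanned at 1 time, the Control group filling slide row 1 and the DFX group slide row 2, so that slide row and treatment cannot be told apart. Between 50.3% and 56.5% of probes were well above background on an array, the lowest share being that of DFX replicate 2. No spot was saturated. Levels below are log2 intensities after quantile normalization, and a difference is the mean of the DFX-treated tumors minus the mean of the control tumors. The epithelial markers of the BxPC-3 cells were well above background on all arrays for 10 of 10 genes. No probe of the array passed an adjusted p of 0.05 (limma, Benjamini-Hochberg over 31807 probes), the lowest being 0.0675. The methods' threshold, an unadjusted p under 0.05, was therefore used as the test, and 2675 probes (8.41%) passed it in limma.

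Of the 10 members, 1 passed the test, TNF, which was lower in the DFX-treated tumors. This is a share of 10%, beside 7.98% of all 22718 genes, of which 4.29% passed in the lower and 3.68% in the higher direction. The groups did not overlap for 2 members, BIRC3 and TNF, where 15.4% of all genes showed such a separation, and exact permutation of 3 against 3 tumors cannot give a two-sided p below 0.1. Differences were below 0 for 6 members and above 0 for 4, with a median of -0.06, beside -0.01 over all tested genes. Apart from TNF, the 9 members were well above background on all 6 arrays.

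**Figure D1:**
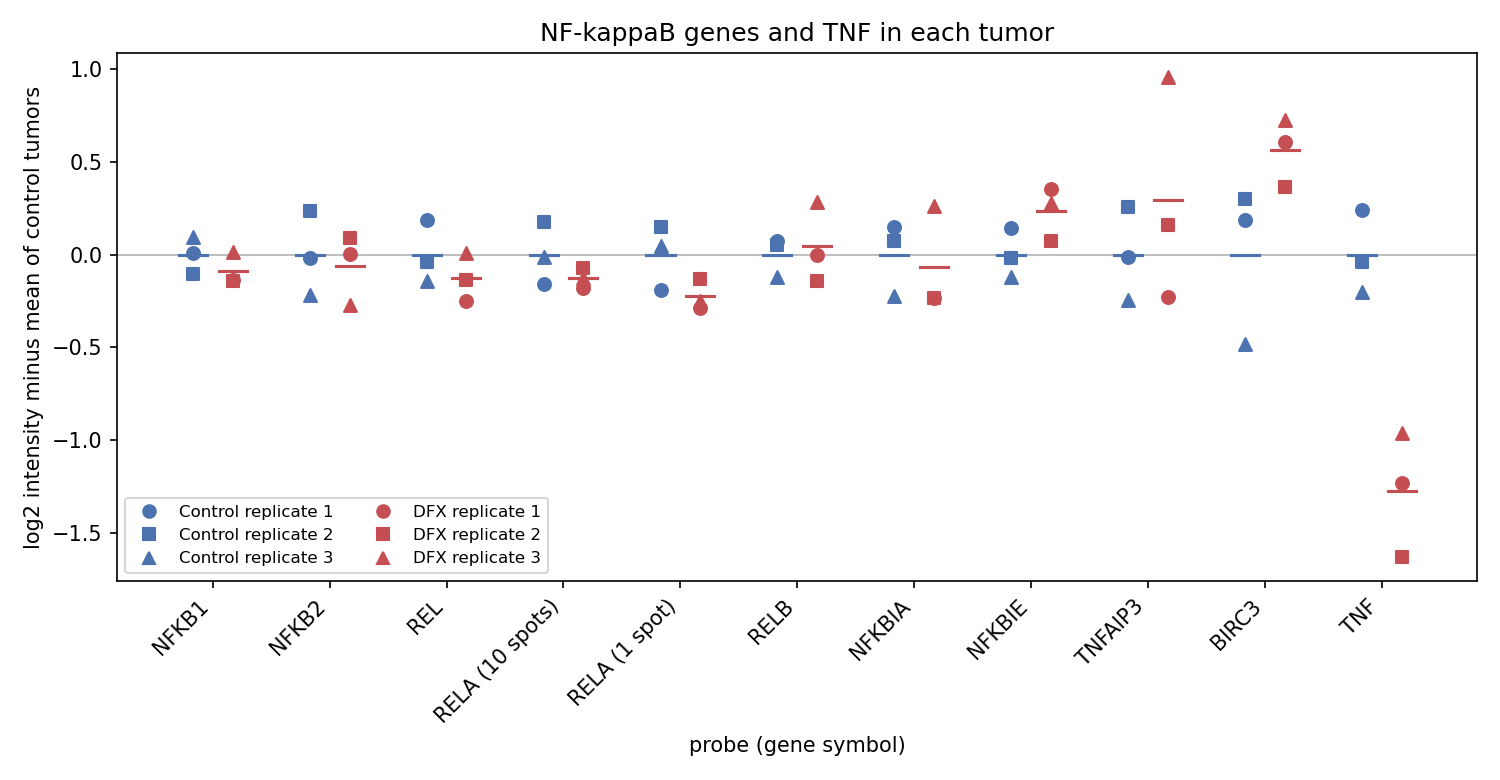
Log2 intensity of each member probe in each tumor, minus the mean of the 3 control tumors (y axis, log2 units), by gene (x axis). Blue symbols are control tumors and red symbols DFX-treated tumors, the shape gives the replicate number, and short lines are group means. The groups separate for BIRC3 and TNF and overlap for the other genes. TNF was well above background on 1 of the 6 arrays only.

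The 5 subunit genes were near the same level in both groups. None of them passed the test, their differences ranged from -0.13 to 0.04 with a median of -0.09, and the groups overlapped for each gene. NFKB1 encodes p105, which is processed to the p50 subunit. Its probe (chr4:103537856-103537915, hg19) read 11.86, 11.75 and 11.95 in control replicates 1 to 3 and 11.72, 11.71 and 11.87 in DFX replicates 1 to 3. The difference was -0.09 (standard error 0.11, limma 95% interval -0.36 to 0.18). NFKB2 encodes p100, the precursor of the p52 subunit of the non-canonical pathway. The tumors read 7.08, 7.33 and 6.88 in the control group and 7.10, 7.19 and 6.83 in the DFX group, with a difference of -0.06 (interval -0.46 to 0.34).

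REL encodes c-Rel, a subunit with a transactivation domain. Its levels were 9.66, 9.43 and 9.33 in control tumors against 9.22, 9.34 and 9.48 in DFX-treated tumors, and the difference was -0.13 (interval -0.46 to 0.20). RELA encodes p65, the transactivating partner of p50 in the canonical dimer, and was read by 2 probes (chr11:65421651-65421710 and chr11:65421986-65422045, hg19). The brighter probe gave 10.13, 10.46 and 10.27 in control and 10.11, 10.21 and 10.16 in DFX-treated tumors, with a difference of -0.13 (interval -0.43 to 0.17). The dimmer probe gave 8.73, 9.07 and 8.96 against 8.63, 8.79 and 8.67, a difference of -0.22 (interval -0.54 to 0.09). Neither RELA probe passed the test with all 6 tumors, and the dimmer one passed when control replicate 1 was left out. RELB, the partner of p52 in the non-canonical pathway, read 12.87, 12.85 and 12.68 in the control group and 12.80, 12.66 and 13.08 in the DFX group. Its difference of 0.04 (interval -0.31 to 0.40) changed sign under 4 of the 20 alternatives. At the brightest probe the narrowest of the 5 intervals was that of NFKB1 and the widest that of NFKB2, and changes inside a gene's own interval are not excluded by these data.

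Of the inhibitor genes, neither passed the test. NFKBIA encodes I-kappa-B alpha, the rapidly induced inhibitor that carries the promoter match shown above. It read 13.84, 13.77 and 13.47 in control tumors and 13.46, 13.46 and 13.95 in DFX-treated tumors. DFX replicate 3 was the highest of the 6 tumors and the other DFX-treated tumors were the lowest. The difference was -0.07 (interval -0.53 to 0.39), and leaving out DFX replicate 1, DFX replicate 2 or control replicate 1 turned its sign. NFKBIE encodes I-kappa-B epsilon. Its levels were 10.53, 10.36 and 10.26 against 10.74, 10.46 and 10.66, so that 2 of the 3 DFX-treated tumors lay above all control tumors. The difference was 0.23 (standard error 0.13), with an interval of -0.08 to 0.55.

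TNFAIP3 encodes A20, a ubiquitin-editing enzyme that shuts down signaling from the TNF receptor and is induced by NF-kappaB. It read 8.61, 8.88 and 8.38 in the control group and 8.39, 8.78 and 9.58 in the DFX group. DFX replicate 3 stood above the rest, while the other DFX-treated tumors lay within the range of the control tumors. The difference of 0.30 (interval -0.49 to 1.08) rested on that tumor, being -0.04 without it. The SD of the DFX group, 0.604, was the widest of any member within a group.

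BIRC3 encodes c-IAP2, a ubiquitin ligase of the TNF receptor complex that protects cells from death, and it is a known NF-kappaB target. Its probe (chr11:102208356-102208415, hg19) read 9.69, 9.80 and 9.02 in control replicates 1 to 3 and 10.11, 9.87 and 10.23 in DFX replicates 1 to 3. All DFX-treated tumors were higher than all control tumors, the gap between the highest control and the lowest DFX-treated tumor being small and control replicate 3 standing lowest. The difference was 0.57 (standard error 0.24), or 1.48-fold with an interval of 0.993-fold to 2.21-fold. It did not pass the test in limma (Benjamini-Hochberg adjusted p = 0.598), its interval on the log2 scale being -0.01 to 1.14. It passed the unadjusted threshold under 7 of 20 alternatives, with a difference between 0.32 and 0.71 over all of them. Among the 7 was the Kruskal-Wallis H test, which any gene without overlap passes. The lowest value was that without control replicate 3, which did not pass, and the highest that without control replicate 2, which passed.

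**Figure D2:**
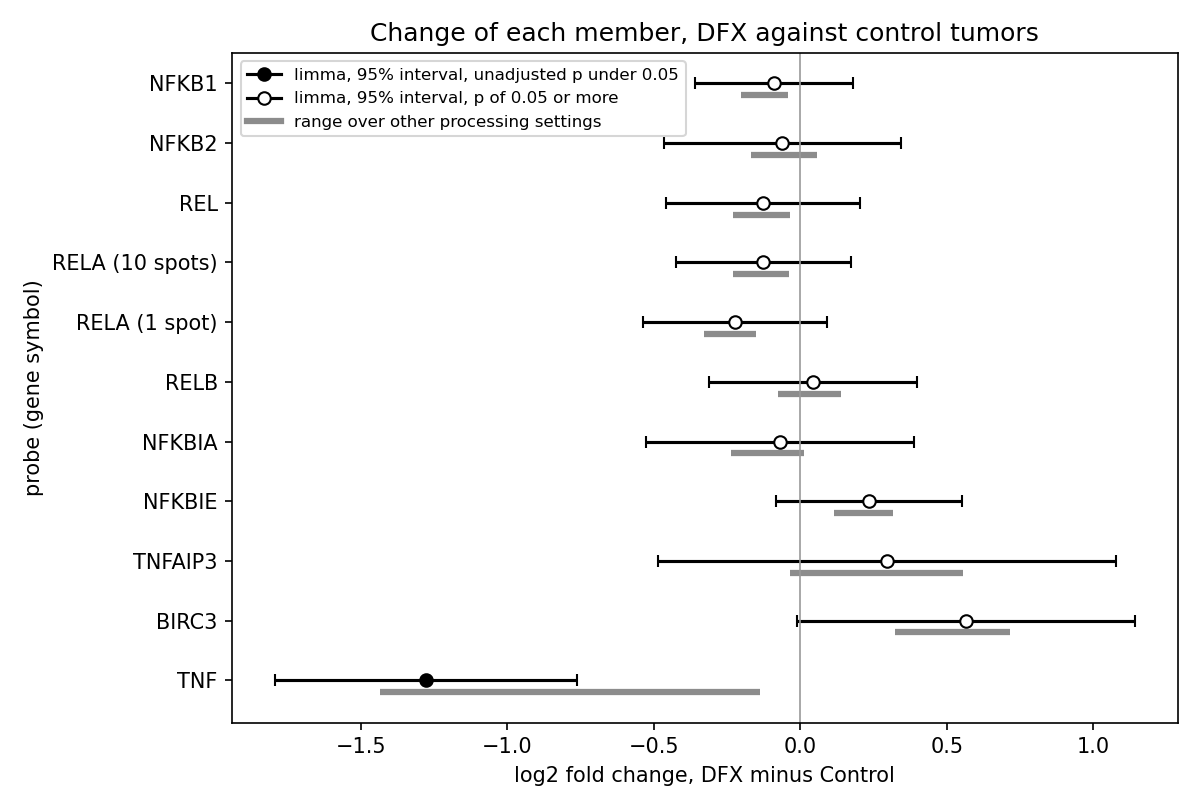
Log2 fold change of each member probe (x axis, DFX minus Control) by gene (y axis). Points are limma estimates with 95% intervals, filled where the unadjusted p was under 0.05, and grey bars span the estimates under the other processing settings. Intervals include 0 for all probes except that of TNF. The estimate for TNF shrinks to -0.14 with the raw mean signal, and its value is no measured fold because the probe was dim.

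TNF encodes tumor necrosis factor, the cytokine that starts canonical NF-kappaB signaling and that NF-kappaB in turn induces, mainly in leukocytes. Its probe (chr6:31545837-31545896, hg19) read 4.65, 4.36 and 4.20 in control replicates 1 to 3 and 3.17, 2.77 and 3.44 in DFX replicates 1 to 3. All DFX-treated tumors were lower than all control tumors. The fitted difference was -1.28 (standard error 0.21), which passed in limma (Benjamini-Hochberg adjusted p = 0.504). The probe was however well above background on 1 control array and on no array of the DFX group, so that no fold is given. On the DFX arrays the dimmest signal still well above background was 4.33 on average, where TNF itself measured 3.13. The control mean of 4.40 was little above that level, and it includes control replicates 2 and 3, where TNF was not well above background. Without control replicate 1 (control mean 4.28) or without DFX replicate 3 (DFX level 4.43) the control mean lies below the level of the DFX arrays. In DFX replicate 2 the TNF spot was not positive and significant over background by the scanner's flag, although its background p-value passed the two-sided detection filter.

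The unprocessed signal of the TNF spot lay close to its background on all arrays. The mean signal of the TNF spot was 101, 93.8 and 94.8 in control tumors and 90.2, 87.8 and 90.3 in DFX-treated tumors, over local backgrounds of 72, 68 and 72 and of 73, 75 and 72. After the scanner software's subtraction, signals of 21.9, 16.0 and 16.9 against 7.45, 5.37 and 10.8 remained. The order of the groups was thus the same before and after subtraction, while the log2 difference was -0.14 on the raw mean signal and -0.18 with normexp background correction, neither of which passed. Among the 3099 probes within 0.5 log2 units of the mean level of TNF, 12% passed the test, and the median difference was -0.08. As shares of the 3099 probes, 8.10% passed in the lower and 3.94% in the higher direction, so most of the passing probes at this level differed in the same direction as TNF. Of these probes 37 (1.19%) had a lower difference than TNF. DFX replicate 2, the array with the smallest share of probes well above background, had the lowest TNF value, and the part of signal level in the result was not tested.

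**Figure D3:**
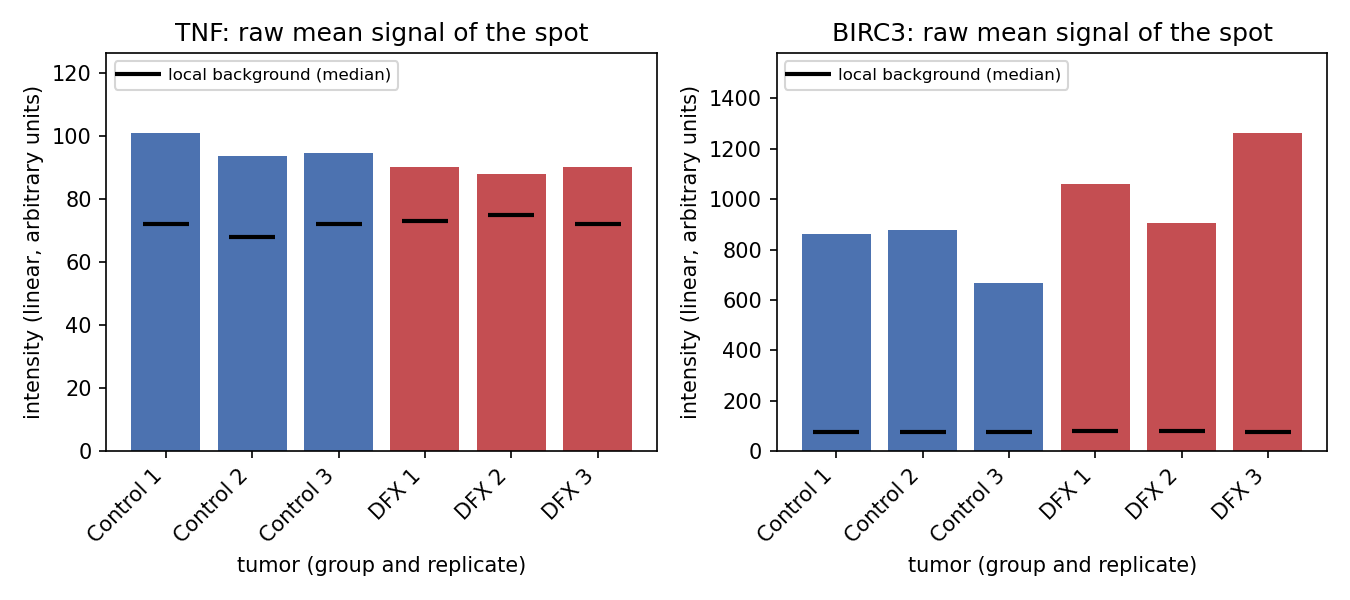
Raw mean signal of the TNF spot (left) and the BIRC3 spot (right) in each tumor (bars, linear intensity from 0), with the median local background of that spot (black lines). Control tumors are blue and DFX-treated tumors red. TNF signals of 87.8 to 101 sit close to backgrounds of 68 to 75, whereas BIRC3 signals of 666 to 1264 sit far above theirs.

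Leukocytes are the usual source of TNF in a tumor, and in these bulk samples fewer cells of a type and less RNA per cell cannot be told apart. Of 12 leukocyte markers, 8 were tested and 0 passed in limma at an unadjusted p under 0.05, beside 7.98% of all genes. At that share few or none of 8 genes would pass, so this count does not show whether leukocyte content changed. Their summed intensity, on the linear scale, ranged from 2761 to 3054 in control tumors and from 3089 to 3340 in DFX-treated tumors. The brightest probes add most to such a sum. By gene, 5 of the 8 had a difference above 0 and 3 below, with a median of 0.16. PTPRC, the pan-leukocyte marker CD45, had a difference of 0.21 and CD68, a macrophage marker, of -0.08. The markers CSF1R, CD163 and MS4A1 did not pass detection. Human probes read host cells only as far as mouse transcripts bind to them. Epithelial markers of the carcinoma cells summed to between 781700 and 793300 in control and between 816500 and 836600 in DFX-treated tumors. Of these 10 genes 3 passed (30%, beside 7.98% of all genes), all higher (KRT8, EPCAM and KRT18, by 0.48, 0.43 and 0.27). Fibroblast markers, 7 of 8 tested, summed to between 12310 and 20000 against 11000 to 13690. Of them 2 passed (28.6%), in opposite directions, DCN at -1.30 and LUM at 0.87. Endothelial markers, 5 of 6 tested, summed to between 559 and 984 against 586 to 620. Here too 2 passed (40%) in opposite directions, ENG at -1.09 and PECAM1 at 1.27. The part of these cell types in the results for the members was not tested.

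The members also varied between tumors of the same group. In control replicate 3, 9 of the 10 genes were below the mean of the control group, NFKB1 being the exception. In DFX replicate 3, 8 of the 10 were above the mean of the DFX group, all but NFKB2 and RELA, and in DFX replicate 2, 8 were below it. The matching shares over all tested genes were not computed, so whether these counts are particular to the members is not known. NFKBIA deviated by 0.33 and RELB by 0.24 in DFX replicate 3, against -0.22 and -0.12 in control replicate 3. Across the 6 arrays, NFKBIA and RELB had a Pearson correlation of 0.898, and of 0.950 for the deviations from the group means. For NFKBIA and TNFAIP3 these values were 0.747 and 0.882, and for NFKB1 and NFKB2 they were -0.759 and -0.988. Over the 6 arrays, NFKBIA with RELB was the highest and NFKB1 with NFKB2 the lowest of all member pairs. NFKBIE with BIRC3 (0.849), REL with NFKBIA (0.806) and RELB with TNFAIP3 (0.786) also exceeded NFKBIA with TNFAIP3. Deviations cancel within each group of 3, so few are free to vary and extreme values come easily. These correlations are descriptions of 6 arrays that share a normalization, and no test was made of them.

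**Figure D4:**
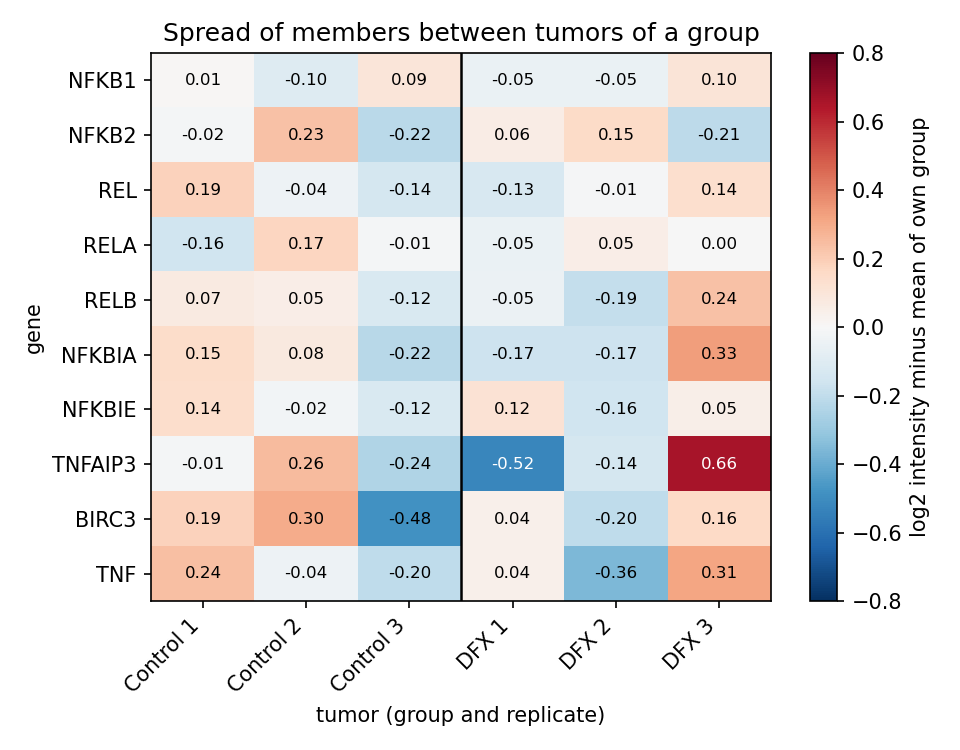
Deviation of each member (y axis) from the mean of its own group in each tumor (x axis), in log2 units, with red above and blue below the mean. Control replicate 3 is below its group mean for 9 of 10 genes and DFX replicate 3 above its group mean for 8 of 10. The matching shares over all tested genes were not computed. The widest deviation is that of TNFAIP3 in DFX replicate 3, at 0.66.

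The pathway around the members was read from 54 other genes, of which 51 had a tested probe. The test was passed by 4 of them (7.84%), close to the 7.98% of all genes, 2 in the lower and 2 in the higher direction. The median difference of the 51 genes was 0.03, with 21 genes below and 30 above 0. None of the 14 listed kinases and kinase partners (IKBKG, TAB1, TAB2 and TAB3) passed at the brightest probe (limma, unadjusted threshold). The lowest of the 14 was RIPK2, a kinase of innate immune receptors, at -0.21, and the highest IKBKE, an I-kappa-B kinase relative, at 1.07 with a standard error of 0.84. IKBKE read 4.16, 4.72 and 3.45 in control and 4.18, 7.09 and 4.26 in DFX-treated tumors, so DFX replicate 2 alone was high. Nor did any of the 12 other inhibitors pass, which ranged from -0.30 for NFKBID to 0.19 for NFKBIZ, both nuclear I-kappa-B proteins. NFKBID did not overlap between the groups and was lower in all DFX-treated tumors but did not pass (limma, adjusted p = 0.623).

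Among 17 tested receptors and adaptors, TNFRSF11A, which encodes RANK, passed with a difference of 0.68 (limma, adjusted p = 0.55). It was well above background on 1 control array and on 2 DFX arrays, with readings of 4.22, 3.92 and 4.63 against 5.18, 4.69 and 4.94. The lowest of that list was the interleukin-1 receptor IL1R1 at -0.28, which did not pass. Of 8 tested ligands 3 passed (37.5%, beside 7.98% of all genes), 2 of them lower and 1 higher. TNFSF11, which encodes RANKL, the ligand of RANK, was lower, with 7.73, 7.59 and 7.67 in control tumors and 6.91, 6.86 and 7.25 in DFX-treated tumors. Its difference was -0.66 (standard error 0.14, limma adjusted p = 0.513), it was well above background on all arrays, and it passed in all 21 settings run. LTB, encoding lymphotoxin beta, was higher by 0.52 (limma, adjusted p = 0.514), from 4.66, 4.63 and 4.72 to 5.30, 4.91 and 5.35, and was well above background on 3 control arrays and 2 DFX arrays.

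LTA encodes lymphotoxin alpha and lies next to TNF on chromosome 6. Like TNF it was read near background, with 4.04, 4.10 and 4.37 in control and 3.17, 3.57 and 3.34 in DFX-treated tumors. It passed in limma (adjusted p = 0.513) but was well above background on 1 control array and on no DFX array. Its control mean of 4.17 was below 4.33, the dimmest level well above background on the DFX arrays, so no fold is given. With normexp or the raw mean signal, LTA, LTB and TNFRSF11A did not pass. TNFRSF11A passed in 12 of 19 settings, with differences of 0.15 to 0.86, and also failed without control replicate 1 or 2 and without DFX replicate 1 or 3. Counted by any probe, 6 pathway genes passed, because a dimmer probe of NFKBIB (-0.44) and one of TAB3 (-0.47) did so while their brightest probes read -0.15 and 0.02. Both of these NFKBIB probes were below 0, while those of TAB3 differed in sign. Of the 3 tested probes of TAB3 only 1 passed.

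Genes known to respond to TNF and NF-kappaB were read from a list of 26, of which 23 were tested. Of these 4 passed (17.4%), beside 7.98% of all genes in either direction. All 4 were higher in the DFX-treated tumors, the direction in which 3.68% of all genes passed. The list was chosen with earlier results of these data known, so the share is a description and no test of the list. The median difference was 0.07, with 8 genes below and 15 above 0. CXCL1, a neutrophil chemokine, rose from 10.82, 10.83 and 10.75 in control tumors to 11.30, 11.03 and 11.32 in DFX-treated tumors, by 0.42 (standard error 0.12, limma adjusted p = 0.517). CXCL3, a chemokine of the same family, rose by 0.55 (limma, adjusted p = 0.570), from 5.07, 5.68 and 5.13 to 6.02, 5.81 and 5.71. TNFAIP2, a TNF-induced gene, rose by 0.28 (limma, adjusted p = 0.581), from 14.86, 14.86 and 14.64 to 15.06, 15.05 and 15.09. The groups did not overlap for any of the 3 genes.

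The acute phase gene SAA1 read 3.72, 4.31 and 2.93 in control tumors and 6.35, 4.65 and 5.57 in DFX-treated tumors. It was well above background on no control array and on 2 DFX arrays. The group means were 3.65 and 5.52 (limma, Benjamini-Hochberg adjusted p = 0.514). Where the dimmest signal well above background exceeded SAA1 on a control array, that signal took its place. Against the control level so raised, 4.02, SAA1 was 2.84-fold higher. This is no strict bound, since the DFX mean includes a tumor whose SAA1 was not well above background. SAA1 passed in all 19 settings in which it was tested. Its difference shrank to 0.53 with normexp and to 0.48 with the raw mean signal, so the fold holds only for the processing described here. ICAM1, an adhesion molecule, was also without overlap at 0.22 but did not pass (limma, adjusted p = 0.649). The lowest of the list was the survival gene BCL2L1 at -0.28. The chemokines IL8 (the array's name for CXCL8), CXCL2 and CCL20 had differences of -0.05, 0.16 and 0.16, and the antioxidant enzyme SOD2 of -0.11, none of which passed. VCAM1, CCL2 and IL6 were not detected on all arrays. After adjustment over all probes 0 of the pathway and target genes passed in limma. The count of 4 target genes fell to 2 with scaling to the median and with the replicate block, to 2 without control replicate 1 and to 1 without DFX replicate 1. TNFAIP2 passed in 12 of 21 settings, failing with median scaling, with the authors' processed values, with the replicate block and without any 1 of the 6 tumors. CXCL3 passed in 15 of 21 and CXCL1 in 19 of 21. The differences of CXCL1, CXCL3, TNFAIP2 and SAA1 were above 0 in every setting in which they were tested. Leaving out a tumor could not turn these signs, because the groups did not overlap for these genes. Filters on dim probes and the choice of test leave the difference itself unchanged, so most settings were no check of the sign.

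**Figure D5:**
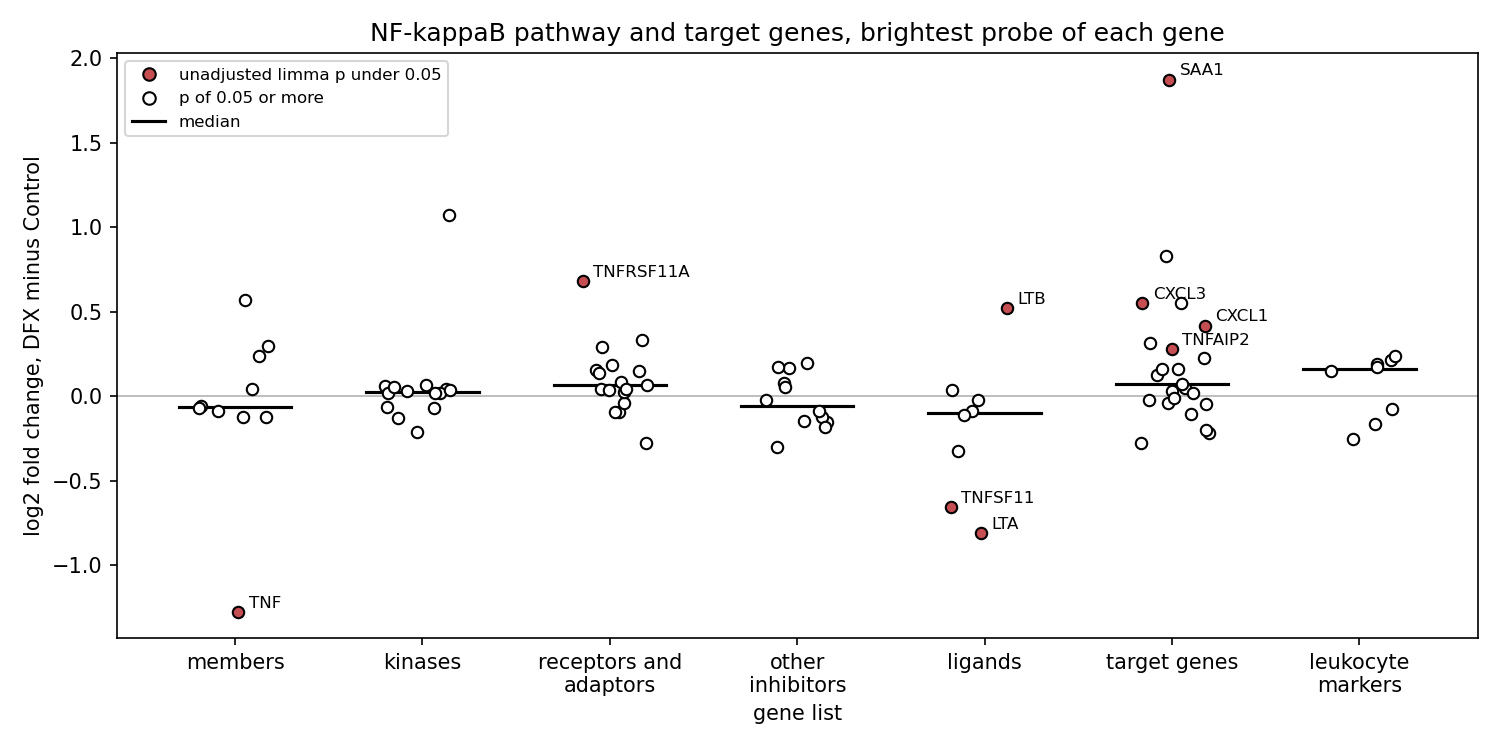
Log2 fold change (y axis, DFX minus Control) of the members and of the pathway, target and leukocyte marker genes, each at its brightest tested probe, by list (x axis). Red points have an unadjusted limma p under 0.05 and lines are medians. The 4 target genes that passed lie above 0, while those of the pathway lie on both sides. TNF, LTA and SAA1 were well above background on no array of one group, so their heights are not measured folds.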

How the data were processed

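Gene expression was measured in 3 control and 3 DFX-treated tumors on one-color Agilent arrays, which the labels and the study give as separate tumors. The authors deposited the scanner output of each array, with linear intensities (the processed signal, from which background is already subtracted, the raw mean and the local background), each spot's p-value for a difference from background, and flag scores for outliers and for signal well above background. They named Agilent Feature Extraction 9.5.1.1, whereas the file headers give 10.7.1.1. Between arrays the scanner intensities were not normalized, while a second deposited table holds the authors' normalized linear intensities, which were used as an alternative.

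Processed signals were put on the log2 scale and quantile normalization was run over 58717 non-control spots, 1398 outlier values were dropped, and spots of a probe were averaged. Probes whose background p-value was under 0.05 on all 6 arrays were kept. This filter is two-sided, and 1238 of the kept probes were not positive and significant on every array, TNF among them. DFX and control tumors were compared by limma 3.58.1 with its lmFit and eBayes functions (R 4.3.3, prior degrees of freedom 2.04) in a fit across all kept probes, with Benjamini-Hochberg adjustment. The paper's methods use the Kruskal-Wallis H test on in vivo data generally, at a threshold of 0.05, and name no test for the arrays in particular. The procedure was tested on simulated data.

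A gene was read by its brightest tested probe. Named genes are all members, the listed genes that passed, the extremes of each list, and the 3 genes most like TNF. PTPRC, CD68, ICAM1, IL8, CXCL2, CCL20, SOD2, NFKBIB, TAB3 and the undetected genes were named after their values were seen. Members and lists were chosen with earlier results of these data known. Gene names and hg19 positions are those of the array annotation, and promoter sequences come from RefSeq (GRCh38.p14). The marker LYZ was not analysed here. The number of arrays limits the precision. The alternatives covered normalization, background correction, signal column, dim-probe filter, outlier flags, the authors' values, the test, replicate and slide column as blocks, array weights, the rule for a gene's probe, and omission of each tumor.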

Additional observations from a re-analysis of the deposited data

How the results depend on the processing

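The 20 alternatives moved the count of probes at an unadjusted p under 0.05 from 2675 to 4927 with the Kruskal-Wallis H test, and to between 1889 and 2717 with a tumor left out. Passing members numbered 2 (TNF and BIRC3) with 75th percentile scaling and with the Kruskal-Wallis H test, and 1 to 2 with a tumor left out, 2 being without control replicate 2. With normexp, the raw mean signal and both stricter filters on dim probes the count stayed 1, but the gene was BIRC3, and TNF has no value under those filters. No member had an adjusted p under 0.05 in any setting, the range being 0.293 to 0.769 for TNF and 0.320 to 0.858 for BIRC3 (limma, Benjamini-Hochberg). Passing pathway genes numbered 1 with normexp, 1 with raw signals, 1 and 2 when a probe had to be well above background on every array or in a whole group, and 3 to 5 with a tumor left out. Passing target genes numbered 2 with median scaling, 2 with the replicate block, and 1 to 4 with a tumor left out.

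The sign turned for RELB (-0.0623 with median scaling, -0.0186 with array weights, -0.0743 to 0.138 with a tumor left out), TNFAIP3 (-7e-04 with array weights, -0.035 to 0.557 with a tumor left out), NFKBIA (-0.235 to 0.014) and NFKB2 (-0.169 to 0.0564), the last pair only when leaving out tumors. The cause was not tested. Of the probes that passed, 58.8% were lower, against 42.6% after scaling to the 75th percentile and 71.8% after scaling to the median, which put the median of all probes at -0.10. The replicate block gave 2419 probes and the same member count of 1. Same-numbered tumors deviated together little (correlations of 0.0274, 0.0267 and 0.0158), so the numbers were not taken to pair the tumors. With 3 arrays a group and TNF, LTA and SAA1 near background, changes of dim genes are measured poorly.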

Other observations

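Among 17786 genes well above background on all 6 arrays, the 3 genes whose log2 intensity was most like that of TNF over the arrays were GEMIN8 (Pearson correlation 0.991), the non-coding transcript XLOC_000765 (0.990) and the epidermal structural gene FLG (0.990). GEMIN8 had a difference of -0.16 that did not pass, while XLOC_000765 and FLG had differences of -0.51 and -0.73 that passed the unadjusted threshold in limma. With 6 arrays and this many candidates, such correlations are a description only.

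The 3 member probes printed in 10 spots per array give the spread between spots, which leaves out variation in labeling and hybridization. The coefficient of variation between the spots of an array was 1.67% to 3.11% for NFKB1, 2.10% to 5.99% for RELA and 1.82% to 3.22% for NFKBIA. On the log2 scale these spreads of single spots reached 0.04, 0.09 and 0.05. The SDs between tumors of a group were 0.10 and 0.09 for NFKB1, 0.17 and 0.05 for RELA and 0.20 and 0.29 for NFKBIA. The tumor values are averages over the spots, which spot noise affects less, so the spot spreads and the tumor SDs are not directly comparable.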
